A study of Mus musculus with 9 samples.

Results

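The early phase of 3T3-L1 adipocyte differentiation, day 4 against day 0, was described across all genes in 6 of the 9 RNA-seq samples of the series. The members were taken by their day labels, with 3 samples at day 0 and 3 at day 4, and the 3 day 8 samples entered the filter and the fit, which share 1 estimate of the spread, and are otherwise given as levels. 3T3-L1 is a mouse preadipocyte cell line of fibroblast-like appearance that turns into lipid-laden adipocytes under a hormone cocktail. At day 0 the cells were close to confluence in complete medium and had not yet received the cocktail. At day 4 they had been through induction medium with dexamethasone (a synthetic glucocorticoid), IBMX (a phosphodiesterase inhibitor that raises cyclic AMP) and insulin. They had then been moved to maintenance medium, which per the study's methods held insulin but no longer dexamethasone or IBMX. No group was kept for 4 days without the cocktail, so time in culture, the drugs themselves and differentiation cannot be told apart.

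As background, the cocktail switches on the transcription factors C/EBP-beta and C/EBP-delta, which are followed by PPAR-gamma and C/EBP-alpha. The latter pair hold each other's genes active and turn on genes of lipid uptake, triglyceride storage and adipokine secretion. Dexamethasone acts through the glucocorticoid receptor, a nuclear receptor that directly raises genes such as Fkbp5 and Tsc22d3. Fat cells also exchange signals with other tissues, so their receptors, secreted proteins and transporters change together with their lipid stores.

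The samples held 20445783, 18216114 and 20452144 expected counts at day 0 and 20182731, 20402862 and 19681622 at day 4. All samples come from 1 cell line, and the study's methods describe each as a mixture of RNA, so the p-values measure only the spread between these samples, which may be technical. In such bulk samples, fewer cells of a kind and less RNA per cell cannot be told apart. The labels call the cells adipocytes on every day and name DRG as the source of the RNA in the extraction text, so defining markers were examined. Of 20 adipocyte markers, 11 had a mean below 1 FPKM (fragments normalised for transcript length and sequencing depth) at day 0 and 2 at day 4. Of 21 listed sensory neuron markers, 19 lay below 1 FPKM at day 0 and 20 at day 4, and the whole list made up 0.00121% of all transcripts at day 0 and 0.000779% at day 4. The most abundant of them was Avil at day 0, with 2.62, 2.09 and 2.25 FPKM, and Snap25 at day 4, with 1.08, 1.10 and 1.17 FPKM. On day 0 and day 4, 5 and 7 genes of this list were at 0. P2rx3, an ATP-gated channel also known from sensory neurons but not on the list, was higher than any of them, with 26.66, 20.04 and 22.48 FPKM at day 0 and 5.38, 5.11 and 4.65 FPKM at day 4.

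By day 4, 1285 of 13154 tested genes were upregulated (9.77%) and 1050 were downregulated (7.98%), where a call asks for a more than 2-fold change together with an adjusted p below 0.05 in edgeR's quasi-likelihood test with Benjamini-Hochberg adjustment. At the adjusted p alone, 4676 genes were higher and 4430 lower, so that a gene missing the call was often still different by a smaller fold. The day 0 and day 4 samples did not overlap for 2300 of the 2335 called genes, against 9423 of all 13154 tested genes. The rises reached further than the falls, since 101 upregulated genes changed more than 64-fold against 3 downregulated genes. At the 4-fold mark the counts were 537 and 326. These counts use fitted fold changes, which are not bounds for the 46 upregulated genes with no count in any day 0 sample and the 2 downregulated genes with none at day 4. Many calls concerned genes of little RNA. The mean was below 1 FPKM on both days in 591 of the called genes, while 715 upregulated genes reached a mean of 5 FPKM at day 4 and 461 downregulated genes had one of 5 FPKM at day 0. The median log2 fold change of all tested genes was 0.02, which is the level the medians below are read against, and -0.05 with library size alone.

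Of the 5 sensory neuron markers with enough counts to test, 3 were called higher at day 4 and 2 lower, beside 9.77% and 7.98% of all tested genes. Snap25, a synaptic vesicle fusion protein, the TRP channel gene Trpv1 and the receptor gene Mrgprd were among the former and Avil among the latter. All 5 had means of at most 2.32 FPKM on both days. Snap25 went from 0, 3 and 0 counts to 47, 48 and 49. The call for Mrgprd was lost without day 0 replicate 2 (log2 fold change 0.987) and with limma on log2(FPKM + 1) and log2(FPKM + 0.1), at 0.264 and 0.949, and that for Trpv1 with limma on log2(FPKM + 1), at 0.314. Their part in the other results was not tested.

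**Figure D1:**
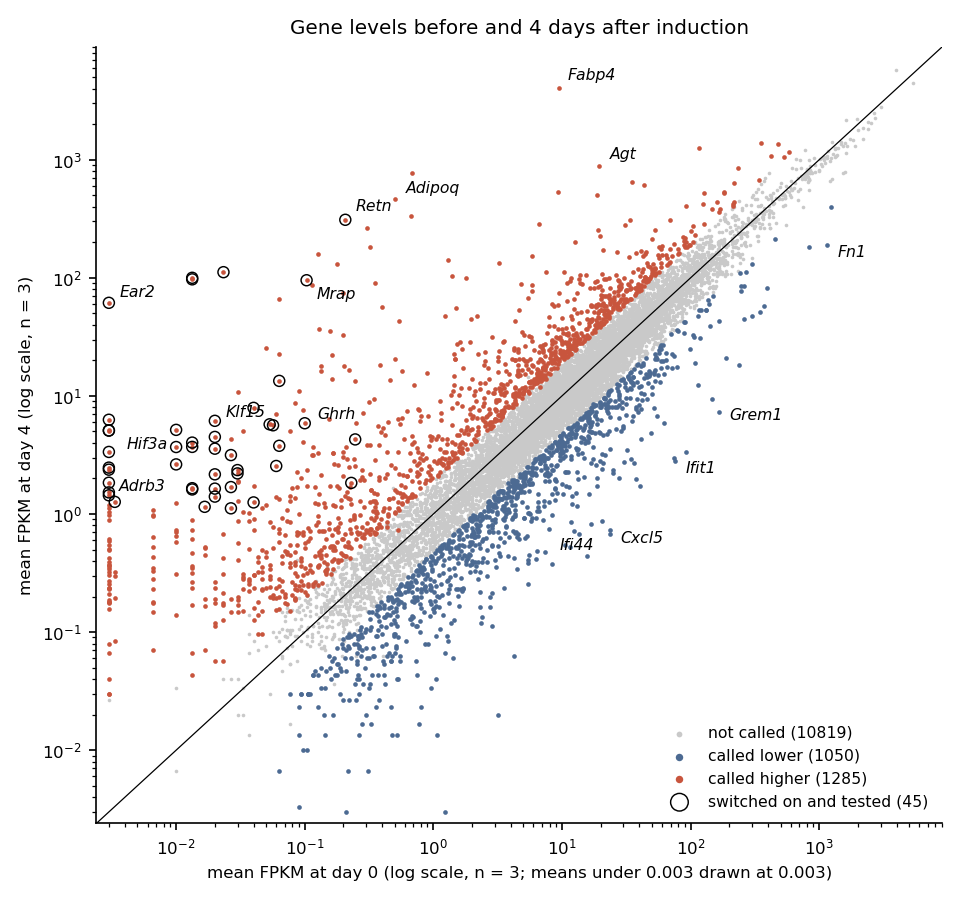
Mean FPKM of each tested gene at day 0 (horizontal axis) and day 4 (vertical axis), both on a log scale, n = 3 samples per day, with called genes in colour, means under 0.003 drawn at 0.003 on either axis, and the 45 tested genes that were switched on ringed. The 1285 upregulated genes lie above the diagonal and the 1050 downregulated genes below it, and the rises, such as Ear2 and Retn, reach further from it than the falls, such as Cxcl5 and Ifit1.

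Genes of 5 classes, and of the families and lists described below, were counted against these background shares (9.77% higher and 7.98% lower). Of the tested transcription factors 5.4% rose and 9.67% fell (43 and 77 of 796), of receptors 24.5% and 16.6% (68 and 46 of 277), and of secreted proteins 23.2% in each direction (85 and 85 of 366). Transporters rose in 17.6% and fell in 9.91% (57 and 32 of 323), and ion channels in 16% and 19% (16 and 19 of 100). With limma on log2(FPKM + 1), where 708 genes rose and 565 fell of all 13154, the counts were 4 and 6 for ion channels, 34 and 30 for receptors, 36 and 17 for transporters, 61 and 57 for secreted proteins and 30 and 49 for transcription factors. Outside these classes 9% rose and 7% fell. The low share for transcription factors came with the large family of numbered zinc finger genes, of which 5 rose and 16 fell among 411. Without them, 9.87% of 385 factors rose and 15.8% fell. The median log2 fold change was -0.19 for transcription factors and -0.12 for ion channels, against 0.12 for receptors, 0.12 for secreted proteins and 0.17 for transporters. As a share of all transcripts, secreted proteins went from 5.83 to 6.56%, transporters from 1.36 to 1.49%, transcription factors from 2.61 to 2.38% and ion channels from 0.287 to 0.227%, without overlap between the days (exact permutation test, two-sided p = 0.1 each, the smallest value 3 against 3 samples can give). Receptors held 1.01% at day 0 and 1.05% at day 4, and their samples overlapped (exact permutation test, two-sided p = 0.3).

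**Figure D2:**
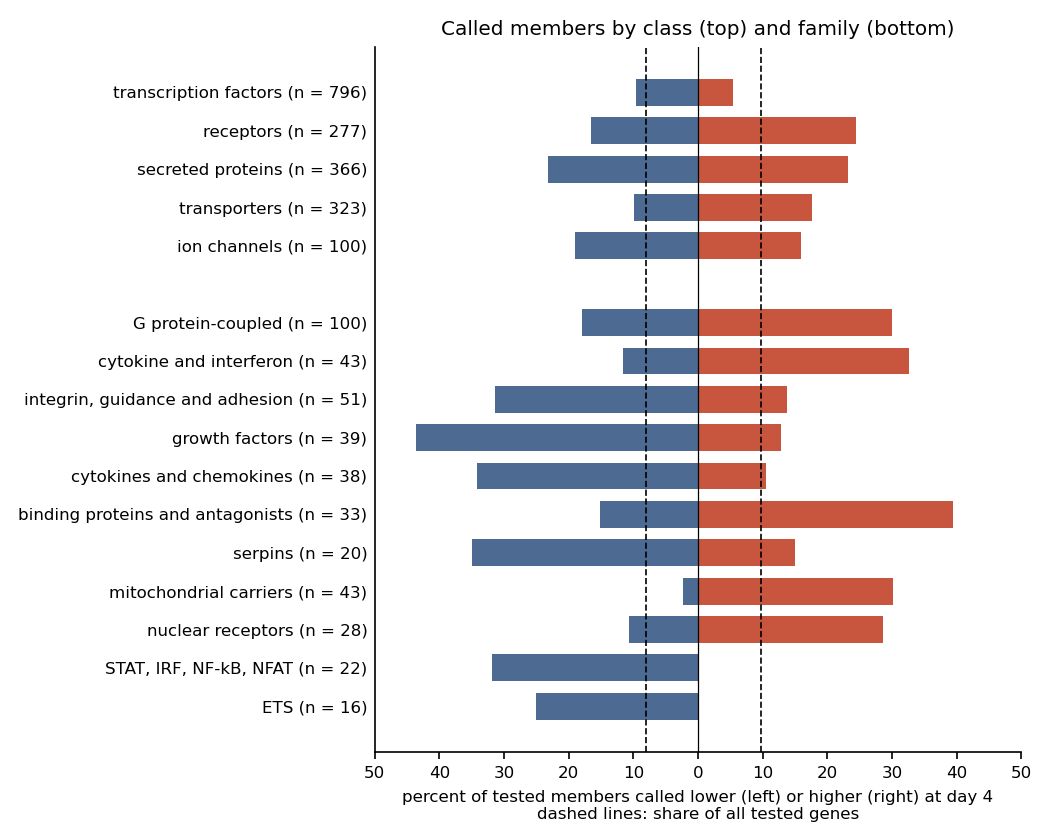
Percentage of tested members called higher (bars to the right) and lower (bars to the left) at day 4, from 0, in the 5 classes and in some of their families, with n the number tested and dashed lines at the shares of all tested genes (9.77% higher, 7.98% lower). Among the 5 classes, receptors and secreted proteins have the longest bars for rises and secreted proteins for falls, and among the families shown growth factors have the longest bar for falls.

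Among the transcription factors, genes that were silent or nearly so at day 0 led the rises. Hif3a, a hypoxia-inducible factor family member, was measured at 0.01, 0.02 and 0 FPKM at day 0 and at 5.14, 5.09 and 5.24 FPKM at day 4 (NCBI gene ID 53417). Its log2 fold change was 8.69 (SE 0.21, adjusted p = 4.8e-15), and at day 8 its mean was 0.93 FPKM, below day 4 and above day 0. Klf15, a Krüppel-like factor known as a direct glucocorticoid target, had 0, 0.02 and 0.04 FPKM and then 5.29, 6.19 and 6.97 FPKM (66277). From 3 counts in all day 0 samples, its ratio was 291, with a 95% interval of 99.2 to 1413 that covers counting error only. Zbtb16, which encodes the zinc finger protein PLZF, rose from 0.32, 0.15 and 0.14 FPKM to 19.03, 17.28 and 17.68 FPKM (log2 fold change 6.53, SE 0.14, adjusted p = 1.1e-15). Klf15 went on to a mean of 15.7 FPKM at day 8, while Zbtb16 was at 3.50 FPKM.

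Among nuclear receptors 8 of 28 tested genes rose and 3 fell (28.6% and 10.7%), and among C/EBP genes 2 of 4 rose and none fell. Of all tested genes 9.77% rose and 7.98% fell, so the falls of nuclear receptors lay near that share. Of transcription factors without the numbered zinc fingers, 9.87% rose and 15.8% fell. Nr1h3, the oxysterol sensor LXR-alpha, was at 2.03, 1.74 and 2.10 FPKM at day 0 and at 37.21, 46.48 and 51.04 FPKM at day 4 (log2 fold change 4.56, SE 0.12, adjusted p = 1.7e-14). Pparg, the central adipogenic receptor, was already expressed at day 0 with 11.45, 11.40 and 11.70 FPKM and reached 87.63, 91.86 and 100.22 FPKM (3.00, SE 0.07, adjusted p = 4e-15). Cebpa rose from 5.54, 5.86 and 6.26 FPKM to 70.51, 89.32 and 101.87 FPKM (3.96, SE 0.11, adjusted p = 4.2e-14). Day 0 and day 4 samples did not overlap for any of the 3. Rxra, the partner of PPAR-gamma and LXR, rose by 1.17 on the log2 scale and Esrra, a regulator of oxidative metabolism, by 1.07. Esrra was close to the 2-fold mark, and with limma on log2(FPKM + 1) its log2 fold change was 0.95. Thra, a thyroid hormone receptor, lay at the mark itself, with 98.41, 91.68 and 102.59 FPKM against 185.09, 189.10 and 190.11 FPKM (log2 fold change 1.02), and the call was lost without day 0 replicate 2 (0.967), without day 4 replicate 2 (0.996) and with library size alone (0.949). Downregulated were Thrb, the other thyroid hormone receptor, at below 0.4 FPKM in every sample, Nr1d2, a clock repressor, by 1.51 and Nr4a2, an immediate early gene, by 1.27 on the log2 scale. With limma on log2(FPKM + 1) Thrb changed by -0.26 and Nr4a2 by -0.91, short of the call.

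Cebpd and Cebpb, the C/EBP genes of the first hours, stood apart at day 4. Cebpd rose from 21.40, 22.01 and 25.55 FPKM to 98.36, 101.96 and 101.35 FPKM (log2 fold change 2.19, SE 0.06, adjusted p = 2.3e-14) and was at 17.9 FPKM at day 8. Cebpb was high on both days, with 81.27, 63.88 and 72.69 FPKM and then 78.37, 82.80 and 86.66 FPKM, and its log2 fold change of 0.25 (SE 0.07, adjusted p = 0.0056) did not pass the fold threshold. Its samples overlapped between the days. Tsc22d3, which encodes the glucocorticoid-induced leucine zipper, was the most abundant factor among the 8 largest rises, going from 29.54, 32.41 and 30.34 FPKM to 286.20, 285.71 and 262.18 FPKM (3.26, SE 0.05, adjusted p = 7.9e-17) before 52.3 FPKM at day 8. Further factors, chosen after their values were seen, were Klf5 with means of 2.71, 13.9 and 1.00 FPKM at days 0, 4 and 8 (log2 fold change at day 4 2.43), Epas1, a hypoxia-inducible factor, with 2.54, Foxo1, an insulin-controlled factor, with 1.62, and Srebf1, a regulator of fatty acid synthesis genes, with 1.35. The factor with the highest FPKM on both days, Atf5, was not called (log2 fold change -0.32).

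The 8 largest falls of transcription factors under the naming rule ran from Id2 to Irf5. Id2, an inhibitor of basic helix-loop-helix factors, fell from 13.18, 17.55 and 18.02 FPKM to 1.87, 1.08 and 1.52 FPKM (log2 fold change -3.38, SE 0.17, adjusted p = 3.2e-11), and its relative Id3, outside these 8, from a mean of 73.9 to 21.9 FPKM. Irf7, the main inducible interferon regulatory factor, fell from 39.80, 25.83 and 30.02 FPKM to 3.75, 2.71 and 4.05 FPKM (-3.14, SE 0.15, adjusted p = 2.6e-11). The lowest day 0 value lay above the highest day 4 value for each of these genes. Ahr, the dioxin receptor, fell by 2.85, Etv4, an ETS factor downstream of growth factor signals, by 2.68 and Atf3, a stress-induced factor, by 2.63 on the log2 scale. Falls of 2.44, 2.42 and 2.41 were measured for Runx1, for Gata2, a factor that holds preadipocytes undifferentiated, and for Irf5. In the STAT, IRF, NF-kappa-B and NFAT family none of 22 genes rose and 7 fell, with a median of -0.41, and in the ETS family 4 of 16 fell, beside 7.98% of all tested genes. Stat2 and Irf9, which act in interferon signalling, fell by 2.21 and 2.34 on the log2 scale.

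**Figure D3:**
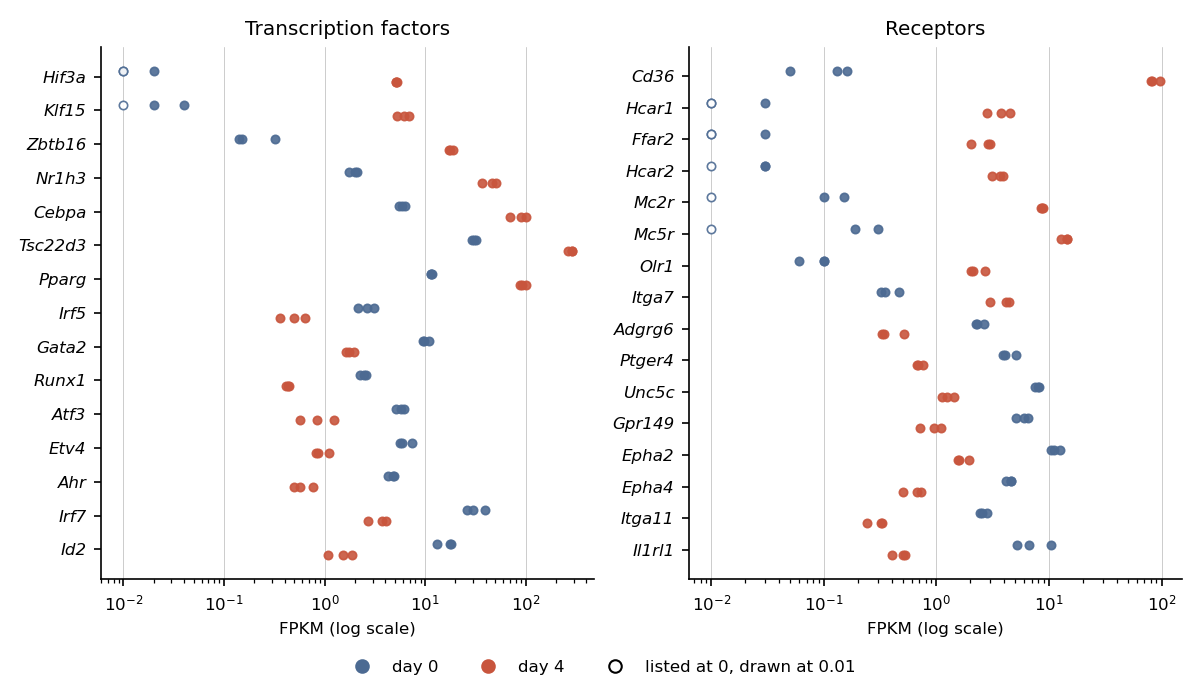
FPKM in each of the 3 day 0 and 3 day 4 samples on a log scale for transcription factors (left) and receptors (right) that are among the largest rises and falls under the naming rule, with values of 0 drawn as open circles at 0.01. Points of the days do not overlap for any gene shown, as the rule required, and several rises start from values at or near 0.

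Of the 68 receptor genes that rose, 30 were G protein-coupled receptors and 14 cytokine and interferon receptors. Cd36, the fatty acid translocase and scavenger receptor, was at 0.16, 0.05 and 0.13 FPKM at day 0 and at 80.00, 83.03 and 96.15 FPKM at day 4 (NCBI gene ID 12491), a log2 fold change of 9.57 (SE 0.17, adjusted p = 1.1e-16). G protein-coupled receptors were called higher in 30 and lower in 18 of 100 tested, beside 9.77% and 7.98% of all tested genes, with a median log2 fold change of 0.25. Among them were receptors that read out nutrients in fat cells. Hcar1, the lactate receptor, was listed at 0, 0 and 0.03 FPKM and then at 2.81, 3.72 and 4.54 FPKM, a ratio of 376 with a counting interval of 104 to 3112. Hcar2, the receptor for the ketone body beta-hydroxybutyrate and for niacin, went from 0.03, 0 and 0.03 FPKM to 3.09, 3.94 and 3.69 FPKM, a ratio of 215 (59.0 to 1777). Ffar2, a receptor for short-chain fatty acids, reached 2.03, 2.85 and 3.01 FPKM with a ratio of 333 (59.3 to 13177). All 3 were several times higher again at day 8, with means of 17.1, 20.9 and 8.98 FPKM.

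The melanocortin receptors Mc2r and Mc5r rose by day 4 and stood lower at day 8. Mc2r, the ACTH receptor, rose from 0, 0.10 and 0.15 FPKM to 8.51, 8.67 and 8.91 FPKM (log2 fold change 6.69, SE 0.25, adjusted p = 1.1e-12) and was at 4.68 FPKM at day 8. Mc5r rose from 0, 0.19 and 0.30 FPKM to 14.34, 14.39 and 12.83 FPKM (6.43, SE 0.27, adjusted p = 3.7e-12) and was at 4.31 FPKM at day 8. Mrap, the accessory protein that brings the ACTH receptor to the cell surface, rose with them from 0.10, 0.11 and 0.10 FPKM to 77.75, 98.02 and 110.26 FPKM (9.81, SE 0.25, adjusted p = 1.2e-14), and stayed at 115.3 FPKM at day 8. Adrb3, the beta-3 adrenergic receptor of fat cells, had no count at day 0 and 1.29, 1.29 and 1.74 FPKM at day 4, at least 27.7-fold higher when day 0 is set at 3 counts per library. Ffar4, the long-chain fatty acid receptor, had no count at day 0 either and 0.47, 1.14 and 1.07 FPKM at day 4, at least 8.43-fold higher, although limma on log2(FPKM + 1) gave a difference of 0.90 that missed the call. Both stood higher at day 8, at 7.55 and 19.6 FPKM.

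Cytokine and interferon receptors rose in 14 and fell in 5 of 43 tested, with a median of 0.33, or 0.12 with genes at 0 counts set at their bound. Among all tested genes 9.77% rose and 7.98% fell. Il15ra, the interleukin 15 receptor chain, rose by 3.37 on the log2 scale, from 0.97, 0.74 and 0.62 FPKM to 7.52, 7.06 and 8.09 FPKM. Ifngr1, the interferon-gamma receptor, rose by 1.84 from a mean of 17.0 to 58.0 FPKM, in the same samples in which interferon-stimulated genes were lower. Prlr, the prolactin receptor, rose by 4.83 from 0.05 FPKM in each day 0 sample to 1.21, 1.17 and 1.18 FPKM. Lipoprotein and scavenger receptors rose in 7 and fell in 2 of 25, with Olr1, the oxidised LDL receptor, at 4.72 and Sort1, the sorting receptor sortilin, at 3.28 on the log2 scale. Receptor tyrosine kinases rose in 5 and fell in 3 of 29, or fell in 5 without day 4 replicate 1 or 2. These are 17.2% and 10.3%, the falls near the 7.98% of all tested genes. Egfr went from a mean of 4.49 to 15.1 FPKM, Fgfr2 from 16.3 to 39.1 FPKM. Mertk, a receptor of the ligand Gas6, rose from 4.44, 3.66 and 4.77 FPKM to 22.43, 19.79 and 17.77 FPKM (2.28) and was at 5.27 FPKM at day 8.

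Of the 46 receptor genes that fell, 18 were G protein-coupled receptors, 16 integrin, guidance and adhesion receptors and 5 cytokine and interferon receptors. Il1rl1, the interleukin 33 receptor, fell from 5.17, 10.39 and 6.62 FPKM to 0.40, 0.52 and 0.50 FPKM (log2 fold change -3.64, SE 0.22, adjusted p = 3.8e-10). Epha2, an ephrin receptor, fell from 11.13, 12.65 and 10.47 FPKM to 1.96, 1.57 and 1.56 FPKM (-2.68, SE 0.10, adjusted p = 1.1e-12), and its relative Epha4 by 2.75 on the log2 scale. Integrin and guidance receptors as a family rose in 7 and fell in 16 of 51, beside 9.77% and 7.98% of all tested genes, with a median of -0.25. Itga11, a collagen-binding integrin chain, fell from 2.83, 2.45 and 2.53 FPKM to 0.33, 0.24 and 0.32 FPKM (-3.06) but was at 2.33 FPKM at day 8. Unc5c, a netrin receptor, fell by 2.58, Nrp2, a semaphorin co-receptor, by 2.15 from a mean of 49.7 FPKM, and Itgav by 1.48. In the opposite direction, Itga7, a laminin-binding chain, rose by 3.41. Itgb1, the common beta-1 chain and the receptor gene with the highest FPKM at day 0, was not called (log2 fold change -0.25). Among G protein-coupled receptors, Ptger4, a prostaglandin E2 receptor, fell by 2.54, Gpr149, an orphan receptor, by 2.60 and Adgrg6, an adhesion receptor, by 2.52.

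Among secreted proteins, a cluster of eosinophil-associated ribonucleases went from no or 1 count at day 0 to means above 50 FPKM in all but Ear6. Ear2 was at 0 FPKM in each day 0 sample and at 53.14, 63.94 and 67.11 FPKM at day 4 (NCBI gene ID 13587), at least 291-fold higher. Ear12, with 0, 0.04 and 0 FPKM and then 95.33, 90.56 and 114.05 FPKM, was at least 303-fold higher, Ear3 at least 294-fold and Ear6 at least 24.9-fold, each against a floor of 3 counts per library. Ear1, with 1 count at day 0, reached 104.84, 106.64 and 123.25 FPKM. The separate values of Ear1 and Ear2 are uncertain, as 57.4% and 41.5% of their sequence, read in windows of 50 bases, is found in other genes too, against 1.0% for Ear6. Ear3 and Ear12 were not examined in this way. At day 8 they stood at means of 22.6 FPKM for Ear12, 18.8 for Ear3, 9.71 for Ear2 and 1.20 for Ear6. Of 7 listed markers of eosinophils, 6 were below 1 FPKM at day 4, the exception being Ear6 itself, and 3 were listed at 0. In the RNase A family as a whole 6 of 9 tested genes rose and 1 fell, beside 9.77% and 7.98% of all tested genes. Ear1 and Ear2, whose separate values are uncertain, were among the rises, as was Ang3, an angiogenin (log2 fold change 7.87). Rnase4 at 63.7 and 96.1 FPKM was not called (0.66) and Rnase10, at below 1 FPKM on both days, fell by 1.30. Without day 0 replicate 2 the value for Rnase10 was -0.89, short of the call.

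Adipokines and apolipoproteins moved mostly in 1 direction, with 19 of 30 higher and 3 lower and a median log2 fold change of 2.46, or 1.78 with genes at 0 counts set at their bound. These are 63.3% and 10%, the falls near the 7.98% of all tested genes, of which 9.77% rose. Retn, which encodes resistin, rose from 0.17, 0.28 and 0.17 FPKM to 240.54, 311.83 and 377.29 FPKM (log2 fold change 10.57). Lcn2, the lipocalin that binds iron siderophores, rose from 1.59, 1.12 and 1.47 FPKM to 102.27, 103.07 and 107.44 FPKM (6.27, SE 0.13, adjusted p = 1.3e-15), and Rarres2, which encodes the chemoattractant chemerin, from a mean of 1.31 to 141.7 FPKM (6.81, SE 0.19, adjusted p = 3.8e-14). Angptl4, an inhibitor of lipoprotein lipase, rose by 3.16, Apoe by 3.41 and Apoc1 by 4.25 on the log2 scale. Other rises of abundant genes lay outside the classical adipokines. Agt, angiotensinogen, the precursor of angiotensin, rose from 18.15, 19.57 and 20.65 FPKM to 861.12, 916.32 and 898.60 FPKM (NCBI gene ID 11606; 5.59, SE 0.06, adjusted p = 7.5e-19) and was at 238.7 FPKM at day 8. C3, the central complement component, rose from 40.78, 38.82 and 51.30 FPKM to 606.76, 620.12 and 620.29 FPKM (3.88, SE 0.09, adjusted p = 6e-15). Both stood lower at day 8, C3 at 299.2 FPKM.

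Some secreted factors differed in their later course. Retnla, a resistin-like molecule, was at 0, 0.10 and 0.09 FPKM at day 0, at 8.94, 13.82 and 17.44 FPKM at day 4 and at 0.93 FPKM at day 8, with a ratio of day 4 to day 0 of 236 (counting interval 65.0 to 1955). Ghrh, growth hormone-releasing hormone, began at 0.19, 0.11 and 0 FPKM and reached 1.67, 6.39 and 9.54 FPKM, a ratio of 60.9 (20.5 to 298). Its day 4 samples differed widely, and its mean at day 8 was 211.6 FPKM. Binding proteins and antagonists rose in 13 and fell in 5 of 33, with a median of 0.36. These are 39.4% and 15.2%, beside 9.77% and 7.98% of all tested genes. Igfbp4, which binds insulin-like growth factors, rose by 2.25 from a mean of 33.2 to 151.0 FPKM. Gas6, the ligand of the kinase Mertk, rose from a mean of 126.6 to 527.1 FPKM (2.12) and was at 167.4 FPKM at day 8.

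Among growth factors and among cytokines, more genes were called lower than higher. Growth factors rose in 5 and fell in 17 of 39 tested, with a median of -0.83, and cytokines and chemokines rose in 4 and fell in 13 of 38, with a median of -0.26. The rises, 12.8% and 10.5%, lay near the 9.77% of all tested genes. The falls were 43.6% and 34.2%, against 7.98% of all tested genes. Cxcl5, a neutrophil chemokine, fell from 21.03, 24.62 and 25.52 FPKM to 0.81, 0.54 and 0.83 FPKM (log2 fold change -4.96, SE 0.14, adjusted p = 3.1e-14), Cxcl1 by 3.70 and Ccl2, a monocyte chemokine, by 3.31 on the log2 scale. Grem1, an antagonist of bone morphogenetic proteins, fell from 146.37, 190.46 and 158.75 FPKM to 9.28, 7.01 and 5.74 FPKM (-4.42, SE 0.12, adjusted p = 2.3e-14). Among growth factors chosen after their values were seen, Fgf7 fell by 2.64, Hgf by 2.45 and Csf1 by 1.59 on the log2 scale, and Inhba, an activin subunit counted with the TGF-beta superfamily ligands, fell by 2.66. Each of the 4 separated the day 0 from the day 4 samples.

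Matrix genes went both ways. Matrix glycoproteins rose in 8 and fell in 16 of 67, with a median log2 fold change of 0.13, and collagens rose in 10 and fell in 7 of 29, with a median of 0.36. Among all tested genes 9.77% rose and 7.98% fell. The 11.9% of matrix glycoproteins that rose lay near that share. Thbs1, thrombospondin 1, fell from 231.44, 240.03 and 245.47 FPKM to 21.74, 16.76 and 16.01 FPKM (log2 fold change -3.65, SE 0.09, adjusted p = 6e-15). Fn1, fibronectin, fell from 1259.33, 1019.89 and 1156.71 FPKM to 217.72, 193.55 and 161.61 FPKM (-2.53, SE 0.10, adjusted p = 2e-12), and Tnc, tenascin C, by 3.49. Timp3, an inhibitor of metalloproteinases, fell by 4.40 from a mean of 8.37 FPKM, while its relative Timp4 rose by 4.85 to a mean of 9.43 FPKM. The basement membrane chain Col4a1 rose by 1.94 from a mean of 232.2 to 849.5 FPKM and Col15a1 by 2.94, whereas Col8a1 fell by 3.87. Matrix proteases and their inhibitors rose in 9 and fell in 6 of 34, and serpins rose in 3 and fell in 7 of 20, Serpina3n being among the former (4.03). Spp1, osteopontin, fell by 2.47 and Cck, the hormone cholecystokinin, by 3.61. Of 5 tested Wnt ligands none was called in either direction.

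**Figure D4:**
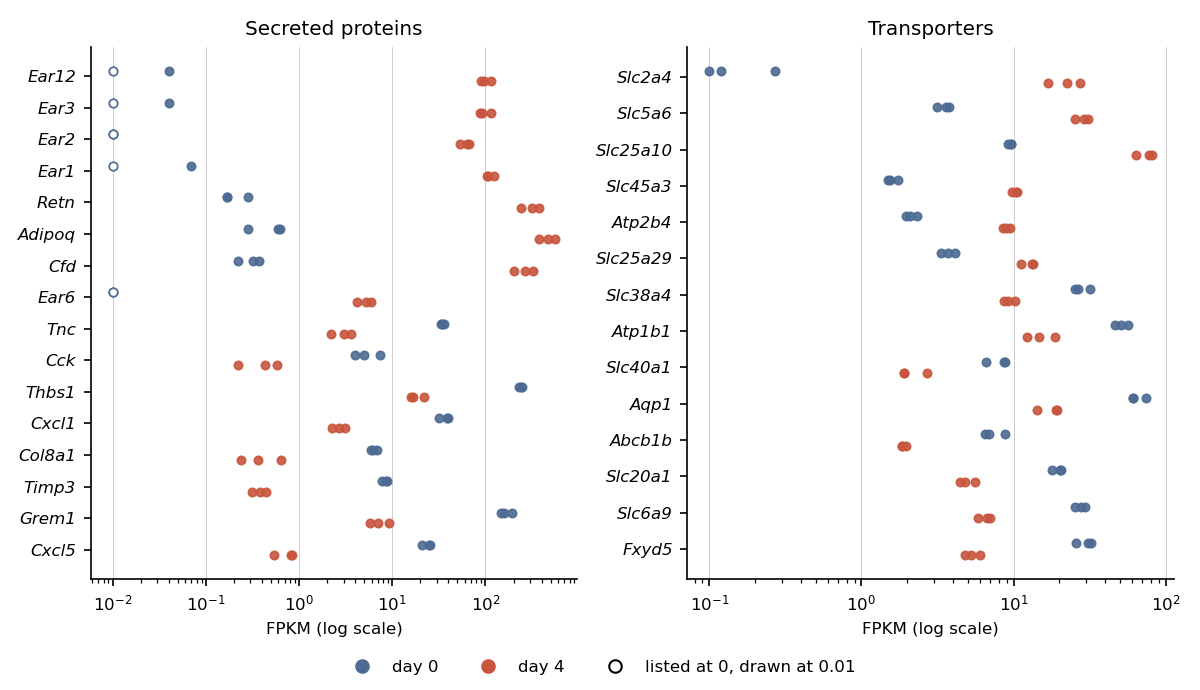
FPKM in each of the 3 day 0 and 3 day 4 samples on a log scale for secreted proteins (left) and transporters (right) that are among the largest rises and falls under the naming rule, with values of 0 drawn as open circles at 0.01. The eosinophil-associated ribonucleases start at or next to 0 and end at 53.14 FPKM or more in every day 4 sample, except Ear6, which ends between 4.18 and 5.91 FPKM.

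Transporter rises included the insulin-responsive glucose transporter and a vitamin carrier. Slc2a4, which encodes GLUT4 (NCBI gene ID 20528), rose from 0.12, 0.27 and 0.10 FPKM to 16.87, 22.58 and 27.33 FPKM (log2 fold change 7.15, SE 0.26, adjusted p = 6.9e-13). Slc5a6, the carrier of biotin and pantothenate, rose from 3.14, 3.76 and 3.58 FPKM to 25.29, 29.00 and 31.01 FPKM (3.06, SE 0.09, adjusted p = 5e-14). Atp2b4, a plasma membrane calcium pump, rose by 2.14. Slc13a4, a sulfate transporter, went from 0.03, 0.02 and 0.01 FPKM to 3.88, 4.49 and 5.11 FPKM (7.77). Slc36a2, a carrier of small amino acids, and Slc22a20, an organic anion transporter, had no count at day 0 and were at least 18.8-fold and at least 15.5-fold higher, at means of 1.13 and 1.19 FPKM. The cholesterol exporters Abca1 and Abcg1, known targets of LXR, rose by 1.52 and 3.85, beside the rise of the LXR-alpha gene Nr1h3 given above. Aqp7, the glycerol channel of fat cells, rose by 4.84, while Aqp1, the water channel, fell from 60.81, 74.64 and 60.99 FPKM to 19.19, 19.11 and 14.25 FPKM (-1.83, SE 0.10, adjusted p = 6.3e-11).

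Carriers of the mitochondrial inner membrane rose far more often than they fell, with 13 of 43 higher, 1 lower (none without day 0 replicate 1 or without day 4 replicate 3) and a median log2 fold change of 0.54. These are 30.2% and 2.33%, beside 9.77% higher and 7.98% lower among all tested genes. Slc25a10, the dicarboxylate carrier, rose from 9.15, 9.69 and 9.69 FPKM to 63.96, 78.14 and 81.53 FPKM (3.04, SE 0.08, adjusted p = 1.6e-14). Slc25a1, which exports citrate for fatty acid synthesis, rose by 1.35 to a mean of 155.9 FPKM, and Mpc1 and Mpc2, which together form the pyruvate carrier, by 1.51 and 1.25. Slc25a29, a carrier of basic amino acids, and Ucp2, an uncoupling protein relative, rose by 1.82 and 1.72. Of the ADP/ATP carriers, Slc25a4, with 508.09, 520.30 and 518.65 FPKM against 453.06, 469.81 and 474.61 FPKM, was not called (-0.08, adjusted p = 0.12), and Slc25a5 rose by 1.18, with an uncertain value since 33.8% of its 50-base stretches occur elsewhere. Among the falls, Fxyd5, a sodium pump regulator, fell from 25.82, 31.10 and 32.41 FPKM to 6.0, 5.22 and 4.79 FPKM (-2.41, SE 0.12, adjusted p = 2e-11), and Atp1b1, the beta-1 chain of the same pump, by 1.68. Further falls were those of Slc6a9, a glycine transporter (-2.02), Slc20a1, a phosphate transporter (-1.91), Abcb1b, a drug efflux pump (-1.90), Slc40a1, the iron exporter ferroportin (-1.82), and Slc38a4, an amino acid transporter (-1.50). Slc40a1 was at 7.38 FPKM at day 8 against 8.02 FPKM at day 0 and 2.17 FPKM at day 4.

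Ion channels took the smallest share of transcripts of the 5 classes. Kcnk3, a potassium leak channel, rose from 3.33, 5.57 and 4.81 FPKM to 16.63, 19.10 and 18.73 FPKM (log2 fold change 2.06, SE 0.12, adjusted p = 2.1e-10). Cacna1g, a T-type calcium channel, rose by 1.86 to 31.3 FPKM and Stim1, the calcium sensor of the endoplasmic reticulum, by 1.66 to 36.7 FPKM. P2rx3, the ATP-gated channel given at the start beside the sensory neuron markers, fell without overlap between the days (-2.13, SE 0.09, adjusted p = 5.8e-12) but was at 18.2 FPKM at day 8. Ano3, an anoctamin, fell from a mean of 2.13 to 0.363 FPKM. Falls of 1.83, 1.67, 1.49 and 1.21 on the log2 scale were measured for Lrrc8c, a volume-regulated anion channel, for Cacna1c, an L-type calcium channel, for Clcn5, and for Itpr3, an inositol trisphosphate receptor. Chloride channels were lower in 4 of 18 and gap junction genes in 3 of 8, beside 7.98% of all tested genes, so that these counts rest on few genes. Of 14 tested TRP channels, a cation channel family that the study examined, 4 rose and 2 fell, beside 9.77% and 7.98% of all tested genes. By RT-PCR the study reported Trpc1, Trpv1, Trpv2 and Trpv6 as higher in differentiated adipocytes, whose day its text does not give. It reported Trpm4, Trpm5, Trpm7 and Trpv4 as lower, of which only Trpm5 is among the calls here. Trpc1 rose from 1.63, 1.63 and 1.55 FPKM to 4.07, 3.37 and 4.20 FPKM (1.34), and Trpv2 from 0.44, 0.34 and 0.30 FPKM to 1.33, 0.94 and 0.90 FPKM (1.61). Trpv1 went from a mean of 0.0933 to 0.363 FPKM, and Trpv6, Trpm5 and Trpm6 changed by 1.70, -2.80 and -1.94 at means that were also below 1 FPKM. None of the 6 TRP calls held with limma on log2(FPKM + 1), where they were 0.90 for Trpc1, 0.59 for Trpv2, 0.31 for Trpv1, 0.12 for Trpv6, -0.57 for Trpm5 and -0.13 for Trpm6. That for Trpv6 was also lost without day 0 replicate 1, at 1.58, without day 0 replicate 3, at 1.58, without day 4 replicate 2, at 1.35, and with DESeq2, at 1.74, since its adjusted p then missed the threshold. With limma on log2(FPKM + 0.1) Trpv6 changed by 0.68 and Trpm6 by -0.80, short of the fold.

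A gene was taken as switched on where every day 0 sample had at most 3 counts and every day 4 sample at least 1 FPKM, and as switched off in the reverse case. Since the values themselves chose these genes, the set is given without a test, and those that the text also describes by their class carry the values of the fit across all genes. There were 59 genes switched on and 12 switched off, and the latter numbered 27 without day 0 replicate 1, 27 without replicate 2 and 22 without replicate 3. Only 45 and 2 of them had enough counts to be tested. The other 14 switched-on genes were microRNA, small nucleolar and small nuclear RNA genes with 1 to 8 counts in a day 4 sample, whose short length turns a few counts into 1 FPKM, and in 10 of these the FPKM of the days overlapped. The 10 untested switched-off genes were short RNAs as well, with 1 to 9 counts in a day 0 sample and overlap in 5. Of the 59, 39 were protein-coding, 9 were microRNA and 4 small nucleolar RNA genes, 21 belonged to the classes above (13 secreted proteins, 4 receptors, 2 transcription factors, 1 transporter and 1 ion channel), and 13 had no count in any day 0 sample. Their median at day 4 was 3.15 FPKM, with 17 of them at 5 FPKM or more. The most abundant were Retn, Ear1, Ear12, Ear3, Mrap, Ear2 and Retnla, followed by Lgals12, a galectin of fat cells (7.92 FPKM), Wfdc21 (6.28 FPKM), Klf15, Ghrh and Car3, a carbonic anhydrase (5.75 FPKM). In 9 of the 59 genes the highest day 0 count was exactly 3, and 37 further genes with 4 to 6 counts lay just outside.

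The day 8 levels, which the rule did not use, are given for the 45 switched-on genes with enough counts to test. All day 8 samples had at least 1 FPKM in 35 of them, 2 had at most 3 counts in every day 8 sample (Klk1b24 and 4930481A15Rik), and 8 lay between. The day 8 mean was more than 2-fold above that of day 4 in 15, more than 2-fold below it in 14 and within that range in 16. Among all 59 genes 12 had at most 3 counts in every day 8 sample, 10 of them the short RNAs of few counts. Lgals12 and Car3 went on to 23.9 and 57.3 FPKM. By contrast, Sfrp5, a secreted Wnt antagonist, had means of 0.02, 1.15 and 0.09 FPKM at days 0, 4 and 8, and Klk1b24, a kallikrein, had means of 0, 1.52 and 0.02 FPKM. These genes were chosen after their values were seen. Of the 12 genes switched off, 7 were small nucleolar RNAs, 2 microRNAs and 1 a ribosomal RNA. The protein-coding ones were Usp17le, a deubiquitinase, with 3.27, 3.91 and 2.41 FPKM and then 0, 0.06 and 0 FPKM (172-fold lower, counting interval 47.2 to 1425, uncertain because of close copies), and Glipr1, with 1.01, 1.59 and 1.11 FPKM and then 0, 0.12 and 0.08 FPKM. In 7 of the 12 the highest day 4 count was exactly 3, and 16 genes lay just outside.

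Outside the 5 classes, lipid storage genes and genes with a higher mean at day 4 than at day 8 were among the largest rises. Fabp4, the fatty acid carrier of fat cells, rose from 9.08, 11.26 and 8.21 FPKM to 3314.41, 3978.54 and 4862.70 FPKM (log2 fold change 8.81, SE 0.15, adjusted p = 9.1e-17) and took the largest gain of all genes in share of transcripts, from 21.9 to 8938 TPM (FPKM rescaled to 1 common total per sample). Cidec and Plin1, lipid droplet proteins, rose by 10.20 and 9.62, and Gpd1, which supplies glycerol phosphate, by 9.03. Thrsp, a lipogenic regulator, had means of 0.127, 158.1 and 37.5 FPKM at days 0, 4 and 8 (10.33 at day 4). Fam107a, a stress-responsive gene, was at 0.06, 0.05 and 0.08 FPKM, then at 65.49, 64.48 and 67.68 FPKM (10.02, SE 0.13, adjusted p = 3.9e-18), and at 1.45 FPKM by day 8. Hp, the plasma protein haptoglobin, which the class lists do not hold, rose by 9.17. Ptgs2, the inducible prostaglandin synthase, had the largest fall under the naming rule, from 12.53, 18.66 and 16.02 FPKM to 0.54, 0.34 and 0.44 FPKM (-5.09, SE 0.16, adjusted p = 1.4e-13). The other 9 of the 10 largest falls included Ifi44, Oasl2, Ifit1 and Ifi47, which belong to the interferon response.

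Among the lists of known genes, all 19 tested adipocyte markers and 20 of 23 PPAR-gamma targets rose, the lists sharing members, with median log2 fold changes of 6.38 and 4.72 (5.90 and 3.58 with genes at 0 counts set at their bound). The adipocyte list went from 0.0464 to 2.05% of all transcripts. Glucocorticoid response genes rose in 17 of 20, with a median of 2.25, and their share went from 0.158 to 0.667% and was 0.247% at day 8. Fkbp5, the feedback co-chaperone of the glucocorticoid receptor, was at 11.35, 14.05 and 12.69 FPKM, then at 199.32, 201.19 and 197.26 FPKM (4.04, SE 0.07, adjusted p = 5.7e-17), and at 14.3 FPKM at day 8. Sult1a1, a sulfotransferase, had means of 0.20, 74.0 and 8.95 FPKM and Mt1, a metallothionein, of 353.5, 1374 and 370.4 FPKM. Hsd11b1, which regenerates active glucocorticoid, went on rising, with 0.54, 43.2 and 138.5 FPKM. Not called were Nr3c1, the receptor itself (-0.62), Sgk1 (0.26) and Dusp1 (0.98). Dusp1 gained a call without day 0 replicate 2 (1.002), without day 0 replicate 3 (1.016) and without day 4 replicate 2 (1.082). Of 17 tested cyclic AMP response genes 5 rose and 1 fell, with a median of 0.10, beside 9.77% and 7.98% of all tested genes. Without day 0 replicate 1 or without any single day 4 sample, 2 or 3 fell. Nr4a1 and Pde4b were also called lower with upper-quartile factors (-1.041 and -1.017) and with library size alone (-1.057 and -1.035).

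Proliferation genes rose in none and fell in 11 of 40, with 38 of the 40 values negative and a median of -0.84. Of all tested genes 9.77% rose and 7.98% fell, and 6414 of 13154 values were negative. Mki67, a marker of cycling cells, fell from 9.87, 14.17 and 9.56 FPKM to 4.31, 3.83 and 4.69 FPKM (log2 fold change -1.32, SE 0.12, adjusted p = 3.7e-08), Cenpe, a kinetochore motor, by 1.59, and Pcna was not called (-0.46). Top2a, a DNA topoisomerase, fell by 1.09, and without day 0 replicate 2, the sample with its highest value, the change was -0.95 and missed the call. Without the same sample 7 of the 40 genes fell, the changes of Cenpf (-0.946), E2f8 (-0.845) and Kif11 (-0.835) also missing the call. With limma on log2(FPKM + 1) 5 fell, and with upper-quartile factors, with library size alone and without day 0 replicate 1 or 3 the count was 14. The summed share of the list was 0.134, 0.176 and 0.135% of all transcripts in the day 0 samples, highest in that replicate, and 0.0849% on average at day 4. Of 8 tested myofibroblast and smooth muscle genes 5 fell and 1 rose (2 without day 4 replicate 3), with a median of -1.94. Acta2, smooth muscle actin, fell from 277.41, 342.56 and 282.59 FPKM to 57.39, 49.89 and 35.22 FPKM (-2.59, SE 0.13, adjusted p = 3.7e-11) and Tpm1, tropomyosin, by 2.20. Preadipocyte and fibroblast markers fell in 4 and rose in 2 of 15 (1 without day 0 replicate 2, day 4 replicate 2 or day 8 replicate 3). The call lost there was that for Twist1. It was also lost with upper-quartile factors (0.955), library size alone (0.939) and the day 0 and day 4 samples alone (0.999). With limma on log2(FPKM + 1) and log2(FPKM + 0.1) Twist1 changed by 0.925 and 0.941, short of the call. Dlk1, the preadipocyte factor Pref-1, went from 793.95, 827.68 and 861.05 FPKM to 183.11, 193.27 and 165.87 FPKM (-2.13) and to a mean of 415.3 FPKM at day 8. Most listed markers of other cell types lay below 1 FPKM. Of 10 listed macrophage and leukocyte genes 8 lay below 1 FPKM at day 4, of 6 endothelial genes all, and of 7 skeletal muscle genes 6. The 9 osteoblast and chondrocyte markers had summed means of 78.8 and 39.9 FPKM on the respective days, and 7 and 6 of them lay below 1 FPKM. Sox9, a cartilage factor, made up 74.8% and 67.8% of the list's share of transcripts, with 55.99, 60.02 and 60.80 FPKM and then 28.17, 28.02 and 24.97 FPKM (log2 fold change -1.06), and without day 4 replicate 3 its change was -0.997, short of the call. Runx2, a bone factor, had means of 18.1 and 10.25 FPKM and was not called (-0.76), Alpl and Comp were called higher at means below 2 FPKM, and Bglap and Acan, which mark mature bone and cartilage cells, were listed at 0 at day 4. The part of such cells in the results was not tested beyond these levels.

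**Figure D5:**
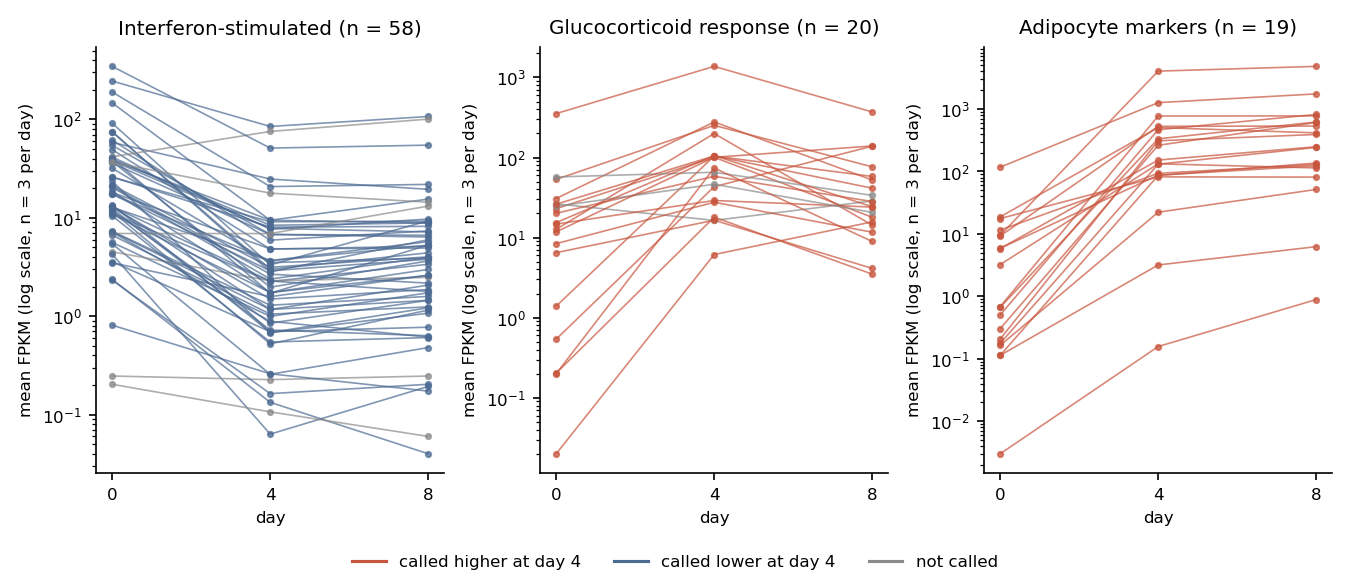
Mean FPKM (log scale, n = 3 samples per day) at days 0, 4 and 8 of each tested gene of 3 lists, 1 line per gene, coloured by its call at day 4, with the 0 of Lep at day 0 drawn at 0.003. The 58 interferon-stimulated genes mostly fall by day 4, with 52 called, 17 of 20 glucocorticoid response genes rise by day 4 and most of them are lower again at day 8, and all 19 adipocyte markers rise.

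Interferon-stimulated genes had the lowest median of the lists, with 52 of 58 tested lower, none higher and a median change of -2.64 on the log2 scale. Among all tested genes 7.98% were lower. Their summed share of all transcripts was 0.592, 0.432 and 0.487% at day 0 and 0.0953% on average at day 4, and 0.116% at day 8. Ifit1, which binds foreign RNA caps, fell from 97.23, 61.00 and 67.49 FPKM to 2.71, 2.21 and 3.55 FPKM (-4.67, SE 0.18, adjusted p = 1.6e-12). Isg15, a ubiquitin-like modifier, fell from 177.49, 118.56 and 144.78 FPKM to 7.54, 8.55 and 12.24 FPKM (-3.90, SE 0.16, adjusted p = 2.2e-12), and Bst2, the virus tether tetherin, from a mean of 345.9 to 51.1 FPKM (-2.69). Day 0 replicate 1 was the highest sample for each of the 3, yet no day 0 sample came near the day 4 range. Ifit3 fell by 4.72 and Ifi44 fell by 5.06 on the log2 scale, the value of Ifit3 being uncertain because 51.2% of its 50-base stretches occur elsewhere. Of the 6 genes that were not called, Ifi27, with 34.03, 47.02 and 44.03 FPKM and then 69.79, 76.90 and 79.60 FPKM, had a log2 fold change of 0.94, which became 1.03 and a call without day 0 replicate 2.

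The promoters of these genes are shown because the list fell together. RefSeq windows of 300 bases, from 250 before to 50 after the start site (GRCm38.p6), were searched on both strands for the letters GAAANNGAAA of the interferon-stimulated response element. A gene was counted once, with a match in any of its windows. The letters stood in 54.8% of the interferon-stimulated genes with a window (23 of 42), against 3.84% of tested genes with a window. Of all 32851 windows, taken singly, 3.44% held them. Of downregulated genes 10.3% held the letters, or 7.93% without the list, and of upregulated genes 3.03%. Stretches upstream of the start site follow, read 5′ to 3′ on the strand of the gene with the matches in capitals, for Ifit1 at chr19:34640735-34640863 (plus strand), Ifit3 at chr19:34583323-34583466 (plus strand), Isg15 at chr4:156200825-156200946 (minus strand) and Rsad2 at chr12:26456513-26456622 (minus strand).
Ifit1: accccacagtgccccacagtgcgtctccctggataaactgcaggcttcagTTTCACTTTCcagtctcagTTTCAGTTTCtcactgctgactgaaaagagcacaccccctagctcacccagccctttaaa
Ifit3: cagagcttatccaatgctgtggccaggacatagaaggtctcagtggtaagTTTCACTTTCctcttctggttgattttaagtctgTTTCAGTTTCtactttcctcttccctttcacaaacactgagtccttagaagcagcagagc
Isg15: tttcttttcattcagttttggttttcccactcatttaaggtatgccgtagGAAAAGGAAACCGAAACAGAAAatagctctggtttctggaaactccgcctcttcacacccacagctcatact
Rsad2: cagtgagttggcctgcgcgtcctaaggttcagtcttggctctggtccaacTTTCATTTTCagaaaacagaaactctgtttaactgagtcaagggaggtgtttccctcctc
Ifit1 and Ifit3 hold the letters at 2 places each, on the opposite strand, and in Isg15 matches overlap in 1 run. Rsad2, which encodes the antiviral enzyme viperin, fell from 3.12, 1.86 and 1.98 FPKM to 0.12, 0.14 and 0.23 FPKM (log2 fold change -3.77, SE 0.29, adjusted p = 7.4e-09). A match is a description of the letters, not a binding site or a cause.

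For the genes that rose, the letters TTGCNNAA, a form of the C/EBP motif, were counted in the same windows on both strands. They stood in 15.8% of upregulated genes with a window (156 of 989), 12.1% of downregulated genes, 10.1% of tested genes and 10.8% of all windows. In the adipocyte list 4 of 15 genes held them, in the glucocorticoid list 4 of 16 and among PPAR-gamma targets 2 of 17, so these shares rest on few genes. Cidec at chr6:113434905-113435012 (minus strand) and Lcn2 at chr2:32387898-32387989 (minus strand) are shown as examples. They were chosen among genes that hold a match, for their log2 fold changes of 10.20 and 6.27. No match was found for Retn (10.57) and Mrap (9.81), which were searched as well. The stretches again lie upstream of the start site and have the match in capitals.
Cidec: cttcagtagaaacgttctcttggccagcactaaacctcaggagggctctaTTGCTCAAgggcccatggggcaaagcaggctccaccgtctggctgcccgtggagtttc
Lcn2: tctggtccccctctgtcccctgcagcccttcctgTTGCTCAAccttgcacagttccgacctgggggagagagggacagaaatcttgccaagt
The windows differ in what else they hold, and no match says only that these letters are not in that window.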

How the data were processed

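The authors sequenced RNA of 3T3-L1 cells on an Illumina platform per the study's methods, while the labels name a BGIseq500 library kit together with Illumina protocols, so the platform is uncertain. The authors removed low-quality and adaptor reads, and counted fragments per gene with RSEM after alignment. The submitters' processing notes also name CASAVA 1.4 and Bowtie2, and the genome build is not given in the sources used here. The deposited files hold expected counts and FPKM per gene and sample. Fold changes and p-values were computed here from the expected counts. Of these counts, 29.8% were not whole and were rounded. Totals per sample lay between 18216114 and 20452144, and the common biological coefficient of variation was 0.0538.

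Counts of all 9 samples, grouped by the day in their labels, were fitted in edgeR 4.0.16 (R 4.3.3) with TMM scaling, the default filter on low counts (13154 of 19094 genes kept) and the quasi-likelihood test of day 4 against day 0, with Benjamini-Hochberg adjustment over all tested genes. Fold changes below 2 were not called. Alternatives used DESeq2 1.42.0 and limma 3.58.1 on log2(FPKM + 1) and log2(FPKM + 0.1), where the fold change of low genes is understated. Tables, exact permutation tests and figures were made in Python 3.11.15 with pandas 2.3.3, SciPy 1.17.1 and matplotlib 3.10.9. Replicate pairs differed by more than counting noise (chi-square per gene 3.17 to 10.7), so the fit kept each sample apart. The test was also run on simulated counts with known changes, which took their means and common spread from this fit. Genes of low counts were left unchanged there, so the recovery of changes in such genes was not tested.

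Genes at 0 on a day were set at a floor of 3 counts per library for their lowest fold. Ratios and their intervals add the counts of all samples of a day together. The intervals are exact, at 95%, and cover counting error only. They leave out the spread between samples, which exceeded counting noise, and so are too narrow. Shares of transcripts are FPKM rescaled to 1 common total per sample (TPM). Of the gene IDs, 19040 of 19094 matched the reference table, and 26 symbols were restored. Values are called uncertain where at least 20% of a gene's 50-base transcript stretches (GENCODE vM21) occur in other genes. Promoter windows are those of RefSeq for GRCm38.p6.

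Named genes were, in each class, the 8 largest rises and falls among called genes with no overlap and a mean of at least 5 FPKM on the higher day (2 for transcription factors, receptors and ion channels), the 3 most abundant members, called nuclear receptors, C/EBP, TRP and RNase A genes, the members of the lists, the 12 most abundant switched genes each way, and the 10 largest rises and falls outside the classes. Other genes named beside their family were chosen after their values were seen. The members and lists were chosen with earlier results of these data known. Some genes that meet the rule are not reported here.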

Additional observations from a re-analysis of the deposited data

How the results depend on the processing

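No called gene among those followed changed sign under the alternatives run, but the median over the tested genes, 0.02 on the log2 scale, was -0.03 with upper-quartile factors, -0.05 with library size alone, and -0.04 and -0.05 with limma on log2(FPKM + 1) and log2(FPKM + 0.1). The counts of 1285 higher and 1050 lower genes were 1279 and 1057 with median-of-ratios factors, 1213 and 1138 with upper-quartile factors, 1195 and 1160 with library size alone, 1496 and 1286 with no filter, 1354 and 1132 with DESeq2, and 1194 and 1049 with the 6 samples alone. The share of calls that were higher went from 55.0% to 50.7% at the lowest, with library size alone. With at least 10 counts in every sample, which removes genes silent on 1 day, they were 831 and 754, and higher calls numbered 32 for receptors, 52 for secreted proteins and 8 for ion channels, with 8 ion channels lower. With limma on log2(FPKM + 1), which shrinks changes of low genes, they were 708 and 565, with 34 receptors, 36 transporters and 4 ion channels higher and 49 transcription factors, 30 receptors, 17 transporters and 6 ion channels lower. Leaving out each sample in turn gave 1262 to 1347 higher and 1036 to 1154 lower genes. Genes switched on numbered 13 when no count was allowed at day 0, 144 when 10 were, 90 at 0.5 FPKM and 11 at 5 FPKM, and genes switched off 1, 48, 26 and 2. Leaving out 1 sample gave 62 to 78 switched on and 14 to 27 switched off, with 27 without day 0 replicate 1 or 2 and 22 without replicate 3. Samples of the same replicate number deviated together with correlations of 0.0744, 0.0750 and 0.0051, so the numbers were not taken to pair samples, and with a replicate block the counts were 1287 and 1053, 2327 of the calls being shared. Of 715 single genes followed, 220 lost their call with limma on log2(FPKM + 1), 15 with library size alone, 3 with the replicate block and 1 to 30 on leaving out a sample. The totals, the lowest being 18216114, limit what can be said of genes with a few counts.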
